A study of Homo sapiens with 10 samples.

Results

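The mitochondrially encoded transcripts are the genes whose symbol begins with MT-. There were 37 of them among the 58676 genes of the count tables, comprising 13 messenger RNAs (mRNAs), 2 ribosomal RNAs (rRNAs) and 22 transfer RNAs (tRNAs), and they were chosen by name, not by level. RNA was sequenced from HEK293T cells, a line derived from embryonic kidney. In 3 samples BRSK2 was overexpressed for 24 h, in 3 samples BRSK1 was overexpressed for 24 h, and the controls were 2 samples that overexpressed hcRED, a red fluorescent protein, for 24 h and 2 mock samples (Mock), for which the labels give no time. All groups shared the cell line, the serum-supplemented DMEM medium and the column kit for RNA. The sources used here do not name the vector or promoter behind the overexpression, and a single transformed line stood for every group. Values are given in the order of replicates 1, 2 and 3 for BRSK2 and BRSK1, replicates 1 and 3 for hcRED, and replicates 2 and 3 for Mock.

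The mitochondrial chromosome is a small circle that is transcribed from both of its strands by a dedicated polymerase, POLRMT, with the help of TFAM and TFB2M. The long precursors are cut mainly at the tRNAs that lie between the other genes, which releases the mRNAs and rRNAs. The mRNAs encode core subunits of respiratory complexes I, III and IV and of the ATP synthase, and the rRNAs MT-RNR1 and MT-RNR2 form the small and large subunits of the mitochondrial ribosome. MT-ND6 is the only mRNA read from the minus strand, and MT-ATP8 with MT-ATP6, and MT-ND4L with MT-ND4, are carried on shared transcripts. BRSK1 and BRSK2 are serine/threonine kinases related to AMPK, an energy-sensing kinase. The series concerns both kinases in relation to NRF2, a transcription factor of the antioxidant response.

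Neighbouring mitochondrial genes share bases, and parts of the mitochondrial chromosome have near-identical copies in the nuclear genome, so reads can be divided between genes. The sequences below show both cases, with positions on hg38, which for all 37 genes equal those in GENCODE 29. MT-ATP8 encodes a small ATP synthase subunit, lies at chrM:8366-8572 on the plus strand and shares its last 46 bases, 22.2% of its length, with MT-ATP6. These shared bases are in capitals.
MT-ATP8: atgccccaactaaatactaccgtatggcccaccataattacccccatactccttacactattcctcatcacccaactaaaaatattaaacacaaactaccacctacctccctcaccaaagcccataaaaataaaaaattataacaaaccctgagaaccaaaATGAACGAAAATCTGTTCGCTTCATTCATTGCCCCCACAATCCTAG
Its nuclear copy MTATP8P1, at chr1:633535-633741 on the plus strand, is identical to it at 202 of 207 bases (97.6%), and the 5 bases that differ are in capitals.
MTATP8P1: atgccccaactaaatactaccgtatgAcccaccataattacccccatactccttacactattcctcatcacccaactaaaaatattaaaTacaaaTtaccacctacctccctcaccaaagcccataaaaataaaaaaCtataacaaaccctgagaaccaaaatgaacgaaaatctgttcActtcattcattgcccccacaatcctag
MT-ND4L, a complex I subunit gene at chrM:10470-10766 on the plus strand, shares its last 7 bases with MT-ND4, shown in capitals.
MT-ND4L: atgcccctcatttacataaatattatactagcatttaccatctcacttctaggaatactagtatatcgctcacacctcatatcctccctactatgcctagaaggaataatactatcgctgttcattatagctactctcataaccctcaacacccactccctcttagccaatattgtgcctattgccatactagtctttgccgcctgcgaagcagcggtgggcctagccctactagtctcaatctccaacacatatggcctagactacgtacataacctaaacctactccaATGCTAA
MT-TP, at chrM:15956-16023 on the minus strand, is the proline tRNA and is shown with its anticodon in capitals because it was the 1 tRNA with enough counts to be tested.
MT-TP: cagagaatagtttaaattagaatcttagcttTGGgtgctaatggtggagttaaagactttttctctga

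All 13 mRNAs, both rRNAs and MT-TP passed the filter on low counts. MT-TF, the phenylalanine tRNA, had 24 counts in all, spread over 8 libraries. The other 20 tRNAs had no count in any of the 10 libraries, and a count of 0 allows a level of up to 0.123 to 0.182 CPM (counts scaled to library size) per library, for counting error only. That limit assumes that RNAs this short were captured and counted, which was not tested. It is therefore no limit on the tRNA levels in the cells. Scaled to gene length, the levels spanned a wide range. MT-CO1, the catalytic subunit of complex IV, had the highest mean over the 10 libraries at 9574 CPM per kilobase, followed by MT-CO2 at 7666, MT-CO3 at 6423 and MT-ATP6 at 6220 CPM per kilobase.  The complex I mRNA MT-ND4 (4580 CPM per kilobase) was at about the level of MT-ND3 (4054) and MT-CYB (3585 CPM per kilobase). Below them came MT-RNR2 (3417), MT-ND1 (2884), MT-ND6 (2670), MT-ND2 (2362), MT-RNR1 (2283), MT-ND5 (2069) and MT-ND4L (1405 CPM per kilobase). MT-TP followed at 577 CPM per kilobase, and MT-ATP8 was last at 35.7 CPM per kilobase, or 45.95 CPM per kilobase over the bases it does not share. In this order the ranges over the 10 libraries overlapped between each transcript and the next, except between MT-TP and MT-ATP8. How reads touching both MT-ATP8 and MT-ATP6 were counted is not given, and leaving out shared bases does not correct for it. The MT-ATP8 value is therefore a level of counts and cannot be read as its RNA level. How RNA was selected for the libraries is not described here. The places of the rRNAs and MT-TP among the mRNAs are therefore also an order of counts, not of RNA levels in the cells. 

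**Figure D1:**
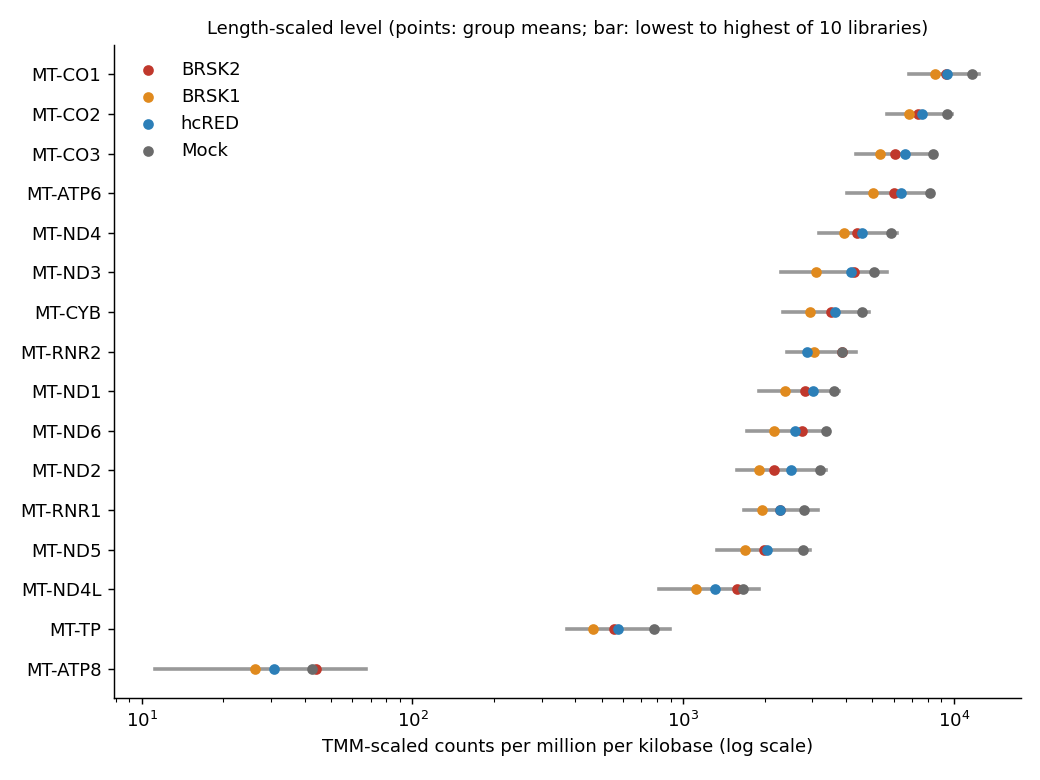
Length-scaled level of the 16 tested mitochondrial transcripts, in TMM-scaled CPM per kilobase on a log axis; points are the means of the BRSK2 (n = 3), BRSK1 (n = 3), hcRED (n = 2) and Mock (n = 2) libraries, and bars run from the lowest to the highest of the 10 libraries. MT-CO1 leads at a mean of 9574 and MT-ATP8 is lowest at 35.7, and the Mock mean is the highest of the 4 group means for each transcript except MT-ATP8.

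The libraries held 16516116 to 24304302 counts each. BRSK1 and BRSK2 together took 4.72% to 10.4% of the counts in the kinase libraries and 0.00992% to 0.0113% in the controls. Of the markers of HEK293T cells, VIM reached 112 to 169 CPM and NEFM 127 to 186 CPM, while PAX2 and LHX1 were low at 2.43 to 6.72 CPM. The blood marker PTPRC was at 0 in every library, whereas the fibroblast gene COL1A1 had 22.2 to 37.5 CPM. The keratinocyte gene KRT5 had 1.02 to 29.3 CPM and was highest in BRSK1 replicate 1, and its part in the results was not tested. A split between libraries that the labels do not name ran through some mitochondrial genes and is described with the nuclear copies: BRSK1 replicates 1 and 3, hcRED replicate 3 and Mock replicate 3 stood on 1 side of it and the other 6 libraries on the other. Separate cultures are not stated in the labels, so the p-values refer to variation among these libraries and that variation may be technical.

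BRSK1 libraries had lower levels of most mitochondrial mRNAs than the control libraries. A gene was called at an adjusted p under 0.05 in edgeR's quasi-likelihood test, with Benjamini-Hochberg adjustment over all 16936 tested genes, and the controls were the mean of the hcRED and Mock group means. By this rule 9 of the 13 mRNAs fell in BRSK1 libraries and none rose, where 6.43% of all tested genes were called, with 3.77% higher and 2.66% lower. The median log2 fold change of the 13 mRNAs was -0.47, beside 0.00 over all tested genes. In BRSK2 libraries 1 of the 13 mRNAs, MT-ND2, fell and none rose, where 7.82% of all genes were called, with 4.77% higher and 3.05% lower, and the median log2 fold change of the 13 was -0.21 against 0.00 over all genes. In bulk RNA, fewer cells with these transcripts and fewer transcripts per cell cannot be told apart.

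The calls depended on which control was used and on single libraries. Against hcRED alone no mRNA was called for BRSK2 (0 at an unadjusted p under 0.05) or for BRSK1 (4 at an unadjusted p under 0.05), where 3.58% and 0.785% of all genes were called by the same test. Against Mock alone 6 mRNAs fell in BRSK2 libraries (5.5% of all genes called, 1.97% lower) and 10 fell in BRSK1 libraries (6.69% called, 3.14% lower). For BRSK1 the count was 3 without Mock replicate 3 (3.26% of all genes called), and 8 without BRSK1 replicate 1 (5.21%), the lowest library for every tested transcript. It was 5 without hcRED replicate 1 (1.76%), hcRED replicate 3 (3.66%) or BRSK2 replicate 1 (10.4%). For BRSK2 no mRNA was called without Mock replicate 3 (4.33% of all genes called), hcRED replicate 3 (4.48%), or replicate 2 (3.81%) or 3 (2.05%) of BRSK2 itself. The count was 4 without BRSK1 replicate 1 (7.13%) and 2 without BRSK1 replicate 3 (6.71%). With the replicate number as a block, 5 mRNAs were called for BRSK1 (11.8% of all genes called) and 0 for BRSK2 (12.7%). In these fits the share of all genes called moved too. With single libraries left out, the adjusted p of MT-ND2 in BRSK2 libraries ran from 0.00288 to 0.111 by edgeR. The 9 mRNAs called for BRSK1 kept a negative log2 fold change under all 32 alternatives tried.

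**Figure D2:**
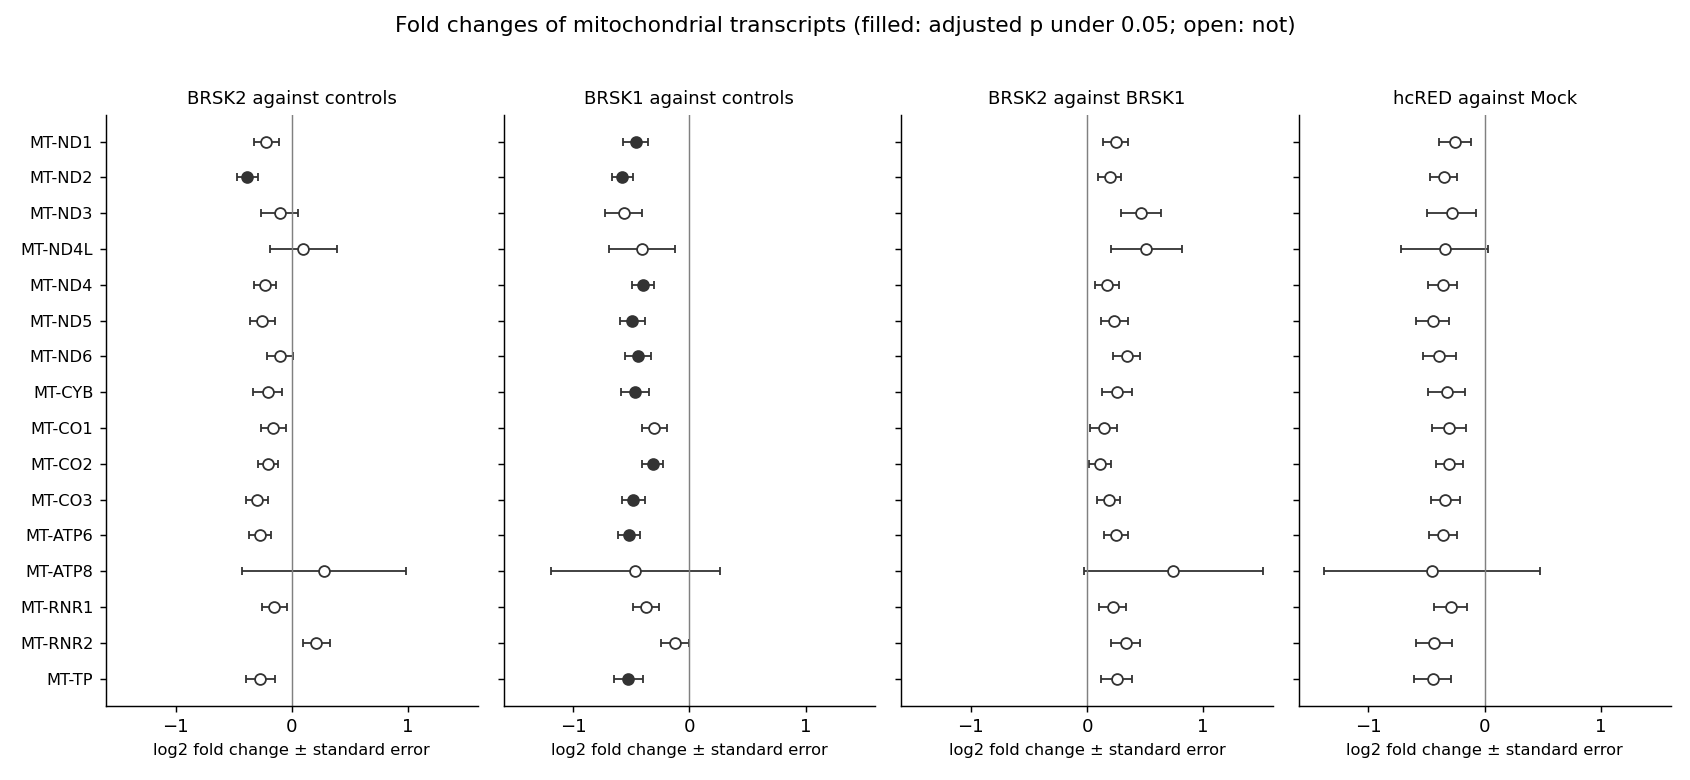
Log2 fold change ± standard error of the 16 tested mitochondrial transcripts in 4 comparisons (filled circles, adjusted p under 0.05 in edgeR's quasi-likelihood test; open circles, not called). In BRSK1 libraries 9 mRNAs and MT-TP are filled, all to the left of 0; in BRSK2 libraries MT-ND2 alone is filled; no transcript is filled for BRSK2 against BRSK1 or for hcRED against Mock.

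Complex I, NADH dehydrogenase, takes 7 of its core subunits from this chromosome. MT-ND2, a proton-pumping membrane subunit (ENSG00000198763, chrM:4470-5511, plus strand), was the mRNA called for both kinases. MT-ND2 had 2464, 2238 and 2089 CPM in BRSK2 libraries and 1648, 2020.3 and 2266 CPM in BRSK1 libraries, against 2456 and 2762 CPM in hcRED and 3164 and 3502 CPM in Mock libraries. All BRSK1 values lay below all control values, and so did the 2 lower BRSK2 values, while BRSK2 replicate 1 lay just above hcRED replicate 1. Its log2 fold change was -0.38 ± 0.09 (adjusted p = 0.0142) in BRSK2 libraries and -0.58 ± 0.09 (adjusted p = 0.00138) in BRSK1 libraries. MT-ND1, the membrane subunit next to the quinone site, had 2925, 2649.6 and 2534 CPM in BRSK2 libraries and 1823, 2360.2 and 2655 CPM in BRSK1 libraries, against 2673 and 3079 CPM in hcRED and 3283 and 3589 CPM in Mock libraries. The BRSK1 libraries lay below every control library and the BRSK2 libraries overlapped them. MT-ND1 changed by -0.46 ± 0.10 (adjusted p = 0.0190) in BRSK1 libraries, and its difference of -0.22 ± 0.10 (adjusted p = 0.226) in BRSK2 libraries did not pass. 

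MT-ND4 and MT-ND5 encode further proton-pumping subunits. MT-ND5 had 4033, 3437 and 3369 CPM in BRSK2 libraries and 2411, 3530.1 and 3260.3 CPM in BRSK1 libraries, against 3676 and 3708 CPM in hcRED and 4722 and 5342 CPM in Mock libraries. The hcRED libraries lay close together and both Mock libraries lay well above every other library. MT-ND5 fell in BRSK1 libraries by a log2 fold change of -0.49 ± 0.11 (adjusted p = 0.0190), and the BRSK2 difference was -0.25 ± 0.11 (adjusted p = 0.178). MT-ND4 had 6572, 5935 and 5708 CPM in BRSK2 libraries and 4383, 5579 and 6233 CPM in BRSK1 libraries, against 5941 and 6629.6 CPM in hcRED and 7623 and 8504 CPM in Mock libraries. The BRSK1 and hcRED values overlapped. MT-ND4 fell in BRSK1 libraries, at -0.40 ± 0.10 (adjusted p = 0.0196), and its BRSK2 difference was -0.23 ± 0.10 (adjusted p = 0.153). MT-ND6, the minus-strand gene, had 1599, 1373 and 1364 CPM in BRSK2 libraries and 905, 1349.6 and 1168 CPM in BRSK1 libraries, against 1412 and 1298 CPM in hcRED and 1771 and 1779.6 CPM in Mock libraries. Its 2 Mock values were the highest of all 10. MT-ND6 fell in BRSK1 libraries, at -0.44 ± 0.11 (adjusted p = 0.0335), and its BRSK2 difference was -0.10 ± 0.11 (adjusted p = 0.636). Whether counting used strand is not given in the sources used here, so reads of MT-ND6 or MT-TP and reads of RNA from the opposite strand cannot be told apart.

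MT-ND3 and MT-ND4L are small membrane subunits and did not pass the test in either kinase comparison. MT-ND3 had 1526, 1505 and 1402 CPM in BRSK2 libraries and 795, 1277 and 1144 CPM in BRSK1 libraries, against 1499 and 1377 CPM in hcRED and 1962 and 1541 CPM in Mock libraries. Its BRSK1 values were all below the control values, and the log2 fold change was -0.57 ± 0.16 (adjusted p = 0.0870) in BRSK1 libraries and -0.10 ± 0.16 (adjusted p = 0.770) in BRSK2 libraries. MT-ND4L had 512, 442 and 458 CPM in BRSK2 libraries and 241, 485 and 266 CPM in BRSK1 libraries, against 455 and 324 CPM in hcRED and 568 and 421 CPM in Mock libraries. Its log2 fold change was -0.41 ± 0.29 (adjusted p = 0.477) in BRSK1 libraries and 0.10 ± 0.28 (adjusted p = 0.885) in BRSK2 libraries. The BRSK1, hcRED and Mock libraries each held a high and a low MT-ND4L value, a split that recurred in MT-ATP8 and in some of the nuclear copies.

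MT-CYB encodes cytochrome b, the electron-carrying core of complex III. MT-CYB had 4632, 3701 and 3747 CPM in BRSK2 libraries and 2660.1, 3564 and 3874 CPM in BRSK1 libraries, against 3921 and 4392 CPM in hcRED and 4867 and 5551 CPM in Mock libraries. The highest BRSK1 value lay just below the lowest control value, and 1 of the 3 BRSK2 libraries exceeded both hcRED libraries. MT-CYB fell in BRSK1 libraries, at -0.47 ± 0.12 (adjusted p = 0.0421), and had a log2 fold change of -0.21 ± 0.12 (adjusted p = 0.343) in BRSK2 libraries.

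Complex IV, cytochrome c oxidase, takes its catalytic core from MT-CO1, MT-CO2 and MT-CO3. MT-CO1 had 15351, 14526 and 13514 CPM in BRSK2 libraries and 10509, 12803 and 16002 CPM in BRSK1 libraries, against 13456 and 15541 CPM in hcRED and 16788 and 19144 CPM in Mock libraries. BRSK1 replicate 3 exceeded both hcRED libraries, and MT-CO1 was not called, with log2 fold changes of -0.16 ± 0.11 (adjusted p = 0.430) in BRSK2 libraries and -0.30 ± 0.11 (adjusted p = 0.117) in BRSK1 libraries. MT-CO2 had 5274, 5025 and 4807 CPM in BRSK2 libraries and 3865, 4692 and 5432 CPM in BRSK1 libraries, against 4909 and 5535 CPM in hcRED and 6187 and 6709.9 CPM in Mock libraries. BRSK1 replicate 3 lay between the hcRED values. MT-CO2 fell in BRSK1 libraries with the smallest change among the called mRNAs, -0.32 ± 0.09 (adjusted p = 0.0377), against a BRSK2 difference of -0.20 ± 0.09 (adjusted p = 0.169). MT-CO3 had 5249, 4582 and 4438 CPM in BRSK2 libraries and 3408, 4405 and 4736 CPM in BRSK1 libraries, against 4799 and 5590.5 CPM in hcRED and 6489.8 and 6663 CPM in Mock libraries. All BRSK1 libraries were below all controls. MT-CO3 fell in BRSK1 libraries, at -0.48 ± 0.10 (adjusted p = 0.00717), and its BRSK2 difference was -0.30 ± 0.10 (adjusted p = 0.0629).

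The ATP synthase takes the proton-channel subunit MT-ATP6 and the small subunit MT-ATP8 from this chromosome. MT-ATP6 had 4500.1, 3905 and 3826 CPM in BRSK2 libraries and 2756, 3922 and 3611 CPM in BRSK1 libraries, against 4372 and 4329 CPM in hcRED and 5592 and 5548 CPM in Mock libraries. The hcRED libraries were close to each other, as were the Mock libraries, and all BRSK1 libraries lay below all 4 controls. MT-ATP6 fell in BRSK1 libraries, at -0.52 ± 0.09 (adjusted p = 0.00387), and its BRSK2 difference was -0.27 ± 0.09 (adjusted p = 0.0816). MT-ATP8 rested on 49 to 275 counts per library and had 9.04, 8.61 and 9.67 CPM in BRSK2 libraries and 2.32, 11.5 and 2.49 CPM in BRSK1 libraries, against 8.43 and 4.36 CPM in hcRED and 13.9 and 3.71 CPM in Mock libraries. High and low values stood side by side in 3 of the 4 groups, the standard error was 0.73 for BRSK1 and 0.71 for BRSK2, and neither log2 fold change, 0.28 for BRSK2 and -0.47 for BRSK1, passed (adjusted p = 0.871 and 0.772 by edgeR).

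**Figure D3:**
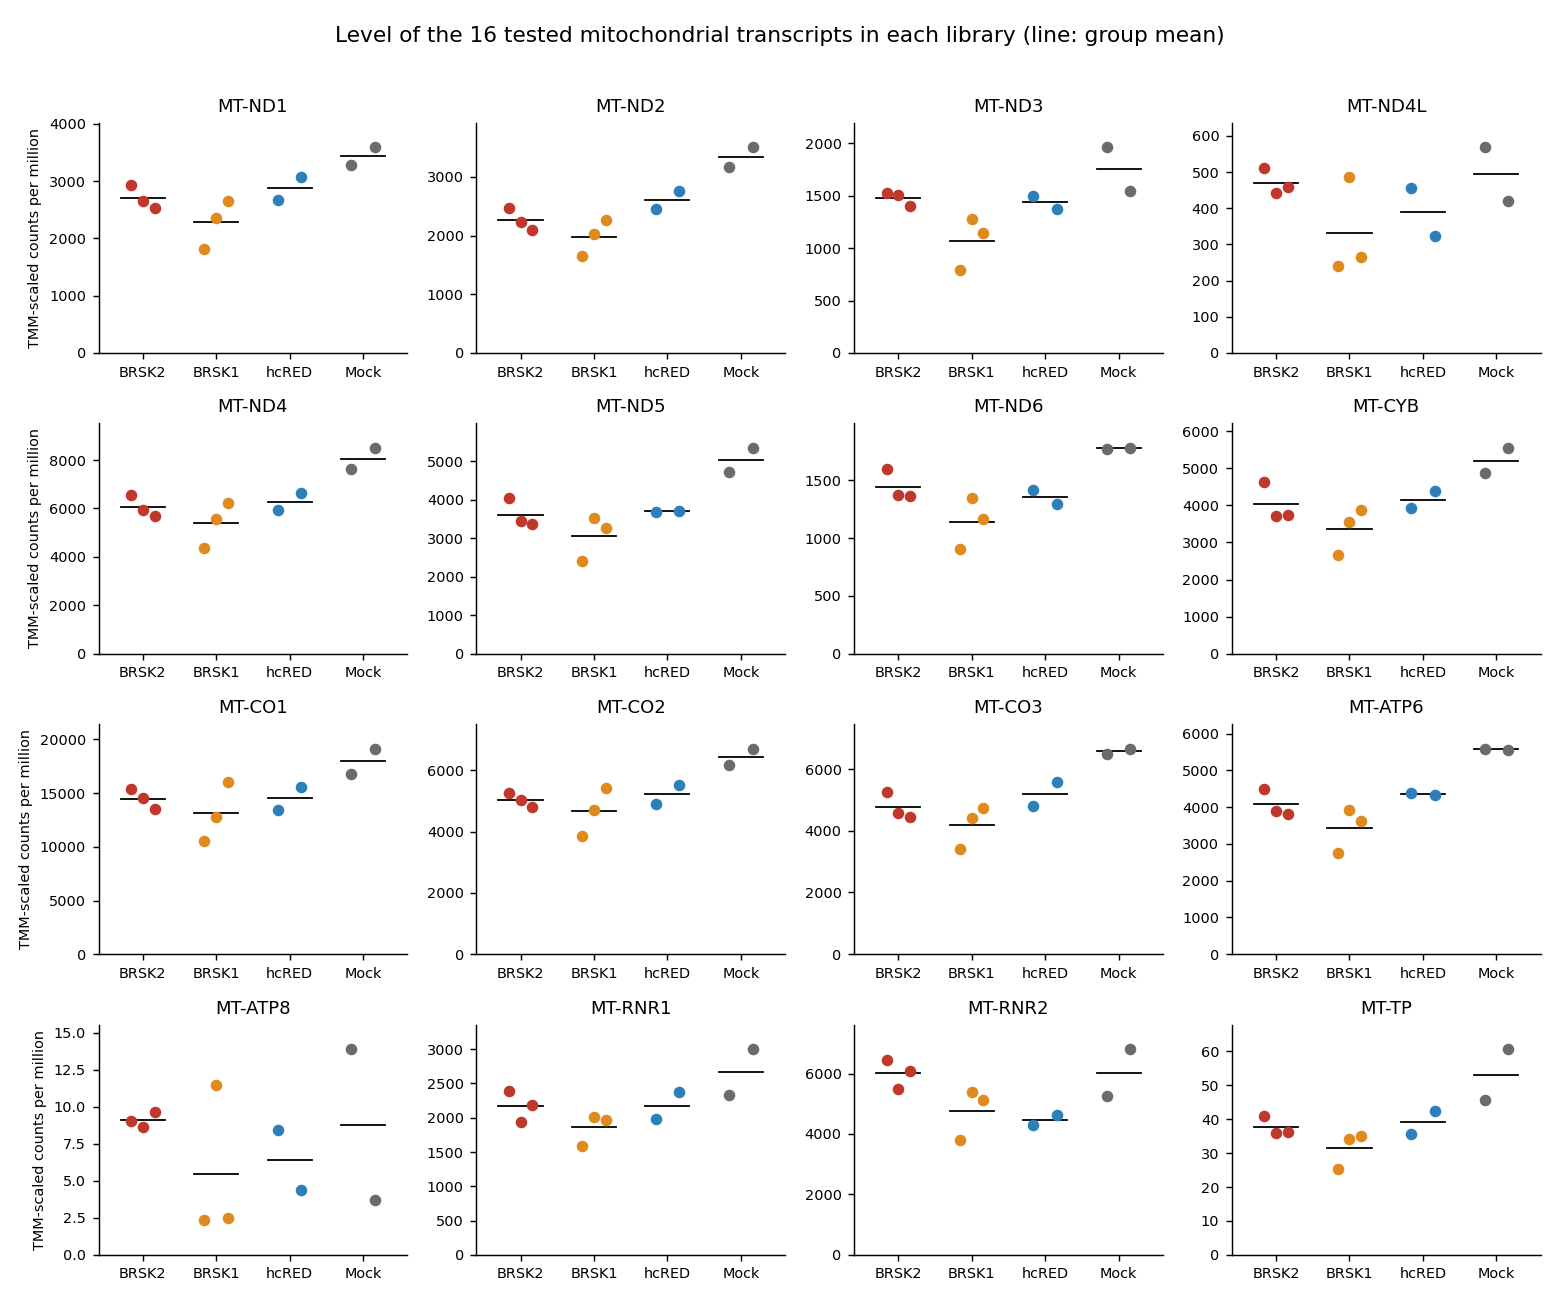
TMM-scaled CPM of the 16 tested mitochondrial transcripts in each of the 10 libraries, by group (points, libraries; lines, group means; each panel starts at 0). BRSK1 replicate 1 is the lowest library in every panel, and both Mock libraries are the highest 2 for MT-ND2, MT-CO3, MT-ATP6, MT-ND5, MT-ND6 and 6 further mRNAs, whereas MT-ND4L and MT-ATP8 do not follow that order.

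Neither rRNA was called. MT-RNR2, the large-subunit rRNA, had 6446, 5483 and 6076 CPM in BRSK2 libraries and 3788, 5377 and 5114 CPM in BRSK1 libraries, against 4296 and 4631 CPM in hcRED and 5251 and 6805 CPM in Mock libraries. The BRSK2 values lay above both hcRED values and between the Mock values, and the log2 fold change was 0.21 ± 0.12 (adjusted p = 0.309) in BRSK2 libraries and -0.12 ± 0.12 (adjusted p = 0.589) in BRSK1 libraries. MT-RNR1, the small-subunit rRNA, had 2386, 1942 and 2183 CPM in BRSK2 libraries and 1595, 2012 and 1972 CPM in BRSK1 libraries, against 1979.5 and 2376 CPM in hcRED and 2332 and 2999.8 CPM in Mock libraries. Its log2 fold change was -0.15 ± 0.11 (adjusted p = 0.450) in BRSK2 libraries and -0.37 ± 0.11 (adjusted p = 0.0587) in BRSK1 libraries. MT-TP had 41.1, 36.0 and 36.2 CPM in BRSK2 libraries and 25.3, 34.3 and 35.2 CPM in BRSK1 libraries, against 35.6 and 42.5 CPM in hcRED and 45.6 and 60.7 CPM in Mock libraries. All BRSK1 libraries were below all controls, and MT-TP fell in BRSK1 libraries, at -0.53 ± 0.12 (adjusted p = 0.0250), with a BRSK2 difference of -0.27 ± 0.12 (adjusted p = 0.209). 

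Setting the transcripts against each other within a library removes any scaling between libraries. Per 100 counts on the 13 mRNAs there were 11.8, 11.1 and 12.8 MT-RNR2 counts in BRSK2 libraries and 10.7, 11.7 and 10.1 MT-RNR2 counts in BRSK1 libraries, against 8.66 and 8.49 MT-RNR2 counts in hcRED and 8.33 and 9.96 MT-RNR2 counts in Mock libraries. Every kinase library thus held more MT-RNR2 per mRNA than every control library, although Mock replicate 3 and BRSK1 replicate 3 were close. The group means were 11.9 ± 0.876 in BRSK2, 10.8 ± 0.805 in BRSK1, 8.58 ± 0.126 in hcRED and 9.15 ± 1.16 in Mock (SD, n = 3, 3, 2 and 2). Relative to MT-RNR1, MT-RNR2 gave 2.70, 2.82 and 2.78 counts per MT-RNR1 count in BRSK2 libraries and 2.38, 2.67 and 2.59 counts per MT-RNR1 count in BRSK1 libraries, against 2.17 and 1.95 counts per MT-RNR1 count in hcRED and 2.25 and 2.27 counts per MT-RNR1 count in Mock libraries. These values did not overlap between kinase and control libraries either. Per 100 mRNA counts MT-RNR1 itself ranged over 3.94 to 4.62 in BRSK2, 3.89 to 4.50 in BRSK1, 3.99 to 4.36 in hcRED and 3.70 to 4.39 in Mock libraries, which overlapped. These ratios sum or combine members and are given without a test. They were chosen with earlier results of these data known. How often ratios of other genes separate kinase from control libraries was not measured, so the separation is a description only.

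As a percent of the counts on the 13 mRNAs, MT-ND2 made up 4.51, 4.54 and 4.42% in BRSK2 libraries and 4.66, 4.39 and 4.47% in BRSK1 libraries, against 4.95 and 5.06% in hcRED and 5.02 and 5.13% in Mock libraries. The 6 kinase libraries lay between 4.39% and 4.66% and the 4 controls between 4.95% and 5.13%. MT-CO3 made up 9.29% to 9.63% of the mRNA counts in kinase libraries and 9.68% to 10.3% in controls, and the shares of the other 11 mRNAs overlapped between the kinase and control libraries. By complex, the complex I mRNAs took 35.8% ± 0.144 of the mRNA counts in BRSK2, 34.7% ± 1.29 in BRSK1, 35.8% ± 0.982 in hcRED and 36.4% ± 0.357 in Mock libraries (SD), which overlapped. Complex IV took 48.1% ± 0.788 in BRSK2, 49.8% ± 2.06 in BRSK1, 47.8% ± 1.52 in hcRED and 47.2% ± 0.611 in Mock libraries (SD), also with overlap. MT-ND2 and MT-CO3 were singled out here after their values were seen. How often such a separation of kinase from control libraries occurs over all genes was not measured, so it is a description only.

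As a percent of all counts, the 13 mRNAs together took 5.25, 4.72 and 4.50% in BRSK2 libraries and 3.62, 4.58 and 5.02% in BRSK1 libraries, against 5.17 and 5.74% in hcRED and 6.39 and 6.89% in Mock libraries. The kinase libraries ran from 3.62% to 5.25% and the controls from 5.17% to 6.89%, with only BRSK2 replicate 1 above the lowest control, hcRED replicate 1. The difference from the 4 controls was -1.22 percentage points for BRSK2 and -1.64 for BRSK1. The kinase transcripts themselves take part of the counts in kinase libraries. Without BRSK1 and BRSK2 in the total, the difference was -0.76 percentage points for BRSK2 and -1.35 for BRSK1. Against hcRED alone it was -0.629 for BRSK2 and -1.05 for BRSK1, and against Mock alone -1.81 for BRSK2 and -2.23 for BRSK1. The difference of BRSK2 from BRSK1, 0.42 percentage points, was 0.0254 without BRSK1 replicate 1.

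**Figure D4:**
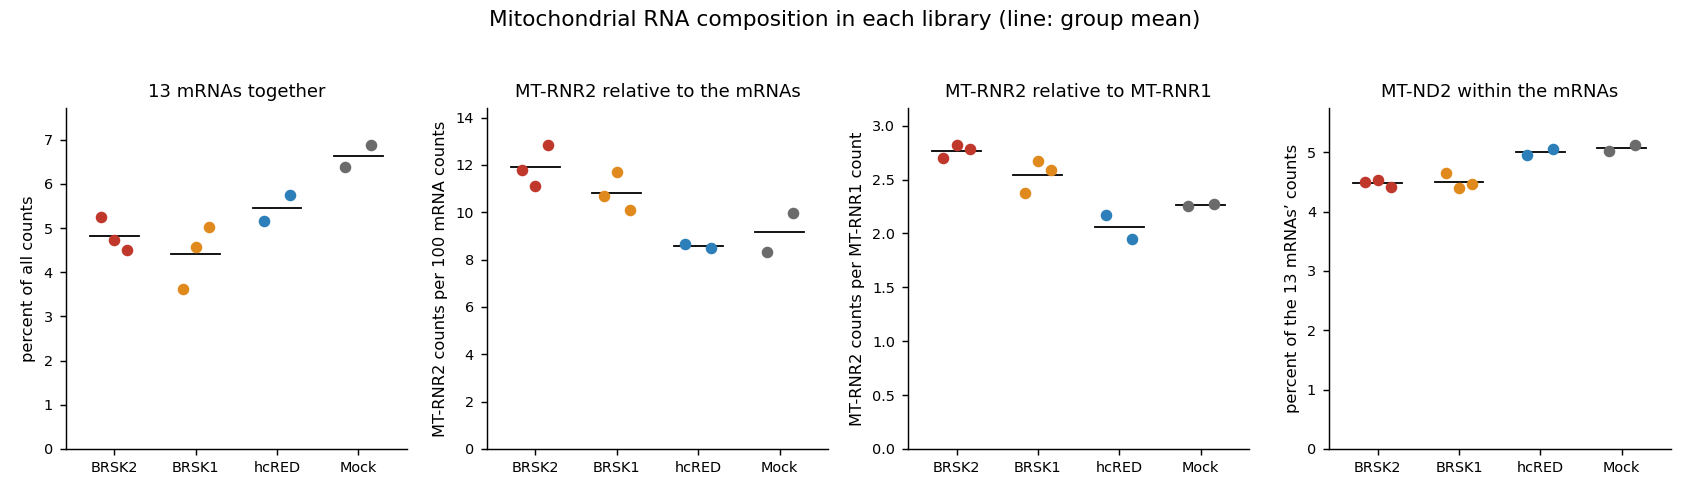
Composition of mitochondrial RNA in each library by group (points, libraries; lines, group means; axes start at 0): the 13 mRNAs as a percent of all counts, MT-RNR2 counts per 100 mRNA counts, MT-RNR2 counts per MT-RNR1 count, and MT-ND2 as a percent of the counts on the 13 mRNAs. The mRNA share is 3.62% to 5.25% in the kinase libraries and 5.17% to 6.89% in the controls, and MT-RNR2 per 100 mRNA counts is 10.1 to 12.8 in the kinase libraries and 8.33 to 9.96 in the controls.

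The 2 control groups were themselves apart. All 13 mRNAs had a negative log2 fold change in hcRED against Mock, between -0.26 and -0.45 with a median of -0.34, beside 0.00 over all genes. In 11 of the 13 both hcRED libraries lay below both Mock libraries, where 20.3% of all tested genes did so, and MT-ND4L and MT-ATP8 were the exceptions. None of the 13 was called by edgeR (0.0295% of all genes were), DESeq2 or limma-voom, and 8 had an unadjusted p under 0.05 by edgeR. MT-ND5 had the smallest unadjusted p of the 13, with a log2 fold change of -0.45 ± 0.14 (adjusted p = 0.352), and MT-RNR2 differed by -0.43 ± 0.15 (adjusted p = 0.413). All BRSK2 libraries lay below both Mock libraries in 11 of 13 mRNAs (16.9% of all genes) and below both hcRED libraries in 0 of 13 (16.9%). For BRSK1 the counts were 11 of 13 against Mock (18.9% of all genes) and 7 of 13 against hcRED (16.7%). Against all 4 controls, all libraries lay apart and lower in 0 mRNAs for BRSK2 (8.2% of all genes) and 7 for BRSK1 (8.44%). The kinase comparisons share these controls. Over the 13 mRNAs the median log2 fold change was -0.05 for BRSK2 and -0.27 for BRSK1 against hcRED alone, and -0.36 for BRSK2 and -0.64 for BRSK1 against Mock alone.

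BRSK2 and BRSK1 libraries were compared directly. All 13 mRNAs had a positive log2 fold change in BRSK2 against BRSK1, between 0.11 for MT-CO2 and 0.74 for MT-ATP8, with a median of 0.25. None was called by edgeR (0.348% of all genes were), DESeq2 or limma-voom, and 4 had an unadjusted p under 0.05 by edgeR. MT-ND6 had the smallest adjusted p of the 13, with 0.34 ± 0.12 (adjusted p = 0.253), followed by MT-ATP6 with 0.25 ± 0.10 (adjusted p = 0.304). All BRSK2 values exceeded all BRSK1 values for 2 of the 13, MT-ND6 and MT-ND3, where 8.65% of all genes did so, and MT-ND3 differed by 0.46 ± 0.17 (adjusted p = 0.333). The same held for MT-RNR2, at 0.33 ± 0.13 (adjusted p = 0.291), and for MT-TP, at 0.26 ± 0.13 (adjusted p = 0.456). More mRNAs were called for BRSK1 than for BRSK2, but no difference between the kinases was called for any of them.

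Nuclear copies of mitochondrial genes bear on these counts, since a read of 1 may be counted for the other. Of 392 annotated copies 7 passed the filter, 6 of them within chr1:629062-634922 and identical to their mitochondrial gene at 98.1% to 98.7% of aligned bases. MTND2P28, the copy of MT-ND2 (chr1:629640-630683, plus strand, 98.4% identical), had 14.2, 11.2 and 12.5 CPM in BRSK2 libraries and 9.04, 11.5 and 10.8 CPM in BRSK1 libraries, against 15.5 and 13.6 CPM in hcRED and 17.8 and 17.9 CPM in Mock libraries. Its order over groups was that of MT-ND2, with log2 fold changes of -0.36 ± 0.12 (adjusted p = 0.0575) in BRSK2 libraries and -0.62 ± 0.12 (adjusted p = 0.00308) in BRSK1 libraries. MTATP6P1, the copy of MT-ATP6 (chr1:633696-634376, plus strand, 98.5% identical), held the most counts. As a percent of MT-ATP6 counts, MTATP6P1 had 9.94, 9.61 and 10.6% in BRSK2 libraries and 6.30, 10.4 and 5.03% in BRSK1 libraries, against 10.1 and 5.96% in hcRED and 10.5 and 6.23% in Mock libraries. The libraries fell into separate sets: 9.61% to 10.6% in all 3 BRSK2 libraries, BRSK1 replicate 2, hcRED replicate 1 and Mock replicate 2, and 5.03% to 6.30% in BRSK1 replicates 1 and 3, hcRED replicate 3 and Mock replicate 3. MTCO1P12, the copy of MT-CO1, split the same way, at 0.552% to 0.636% of MT-CO1 counts in the first 6 libraries and 0.282% to 0.332% in the other 4. MTCO2P12, the copy of MT-CO2, and MTCO3P12, the copy of MT-CO3, also split, at 0.0768% to 0.128% against 0.0185% to 0.0416% of MT-CO2 counts and at 0.0609% to 0.102% against 0.0260% to 0.0377% of MT-CO3 counts. MTND2P28 did not, at 0.499% to 0.631% against 0.478% to 0.549% of MT-ND2 counts, nor did MTND1P23, the copy of MT-ND1, at 0.0297% to 0.0694% against 0.0166% to 0.0442% of MT-ND1 counts. Of the tested copies only MTND2P28 was called against the controls, in BRSK1 libraries. MTRNR2L12, a copy of MT-RNR2 on chromosome 3, had 1 to 18 counts per library and a log2 fold change of 1.39 ± 0.69 (adjusted p = 0.230) in BRSK2 and 0.65 ± 0.72 (adjusted p = 0.648) in BRSK1 libraries. MTATP8P1, shown above, had 6 counts in all.

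The same split ran through MT-ATP8, MT-ND4L, MT-ND6 and MT-ND3. MT-ATP8 stood at 0.193% to 0.292% of MT-ATP6 counts in the 6 libraries with the higher MTATP6P1 share and at 0.0669% to 0.101% in the other 4, and MT-ND4L stood at 7.44% to 8.70% against 4.27% to 5.50% of MT-ND4 counts. MT-ND6 followed, at 2.86 to 3.02 against 2.36 to 2.68 counts per 100 counts on the 12 plus-strand mRNAs. MT-ND3 took 2.78% to 3.11% of the mRNA counts in the 6 libraries and 2.25% to 2.52% in the other 4. MT-TP, the shortest tested gene, did not split this way: its CPM was higher in hcRED replicate 3 and Mock replicate 3 than in hcRED replicate 1 and Mock replicate 2. The labels name no batch, and the split runs across groups, except that every BRSK2 library is on 1 side. Its part in the fold changes of MT-ND3, MT-ND4L, MT-ND6 and MT-ATP8 was not tested. A fit with the split as a term was chosen after seeing that these genes follow it, so its values only describe them. For BRSK2, with every library on 1 side, the term rests on the other groups. With that term 11 mRNAs fell in BRSK1 libraries (6.6% of all genes called, 2.85% lower), MT-ND3 at -0.52 and MT-ND4L at -0.35 among them. For BRSK2 2 mRNAs fell (5.14% of all genes called, 1.65% lower), MT-ND2 at -0.34 (adjusted p = 0.0492 by edgeR) and MT-ATP6 at -0.34. All 13 were negative for BRSK2, MT-ND4L (-0.21) and MT-ATP8 (-0.40) included. The split was drawn from MTATP6P1 and MT-ATP6 counts, so the value and the call of MT-ATP6 under this term are a description. MT-RNR2 stayed at 0.23 for BRSK2 and -0.13 for BRSK1. Within the 6 libraries with the higher share, where BRSK1, hcRED and Mock had 1 library each, the median log2 fold change of the 13 mRNAs was -0.15 for BRSK2, with 13 negative, and -0.27 for BRSK1, with 12 negative. Within the other 4, where hcRED and Mock had 1 library each, it was -0.58 for BRSK1, with 13 negative. These are values without a test. With the counts of each nuclear copy added to its mitochondrial gene, 1 mRNA was called for BRSK2 and 9 for BRSK1.

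**Figure D5:**
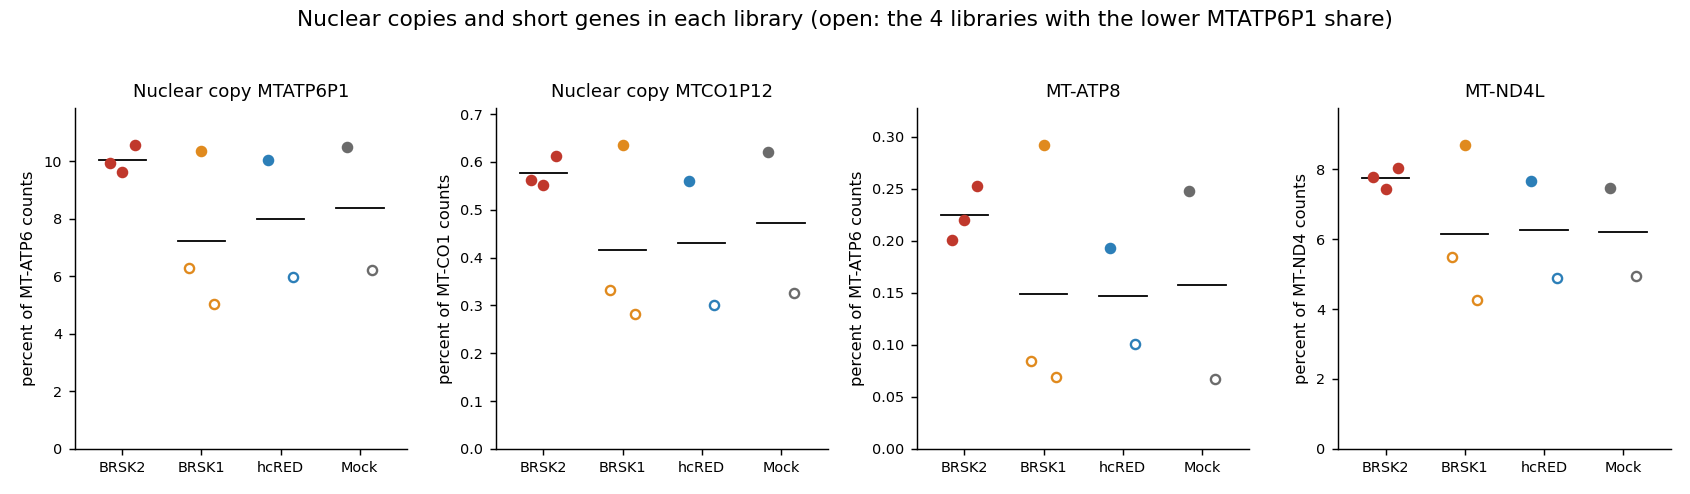
Counts of the nuclear copies MTATP6P1 and MTCO1P12 and of the short genes MT-ATP8 and MT-ND4L as a percent of MT-ATP6, MT-CO1, MT-ATP6 and MT-ND4 counts in each library, by group (filled, 6 libraries with the higher MTATP6P1 share; open, the 4 with the lower share; lines, group means; axes start at 0). The filled points lie above the open ones in all 4 panels, at 9.61% to 10.6% against 5.03% to 6.30% for MTATP6P1, and the 3 BRSK2 libraries are all filled.

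Nuclear genes that serve mitochondria were followed in 5 lists of 204 distinct tested genes. For BRSK2 2 rose (0.98%) and 15 fell (7.35%), where 4.77% of all tested genes rose and 3.05% fell. For BRSK1 2 rose (0.98%) and 12 fell (5.88%), where 3.77% of all tested genes rose and 2.66% fell. Of 19 genes of mitochondrial transcription and replication, 1 fell and none rose in BRSK2 libraries, and 1 rose and 1 fell in BRSK1 libraries, with list medians of 0.06 in BRSK2 and -0.08 in BRSK1 on the log2 scale. TFAM, which packages mitochondrial DNA and opens its promoters, had 154, 146 and 139 CPM in BRSK2 libraries and 161, 166 and 144 CPM in BRSK1 libraries, against 165 and 166 CPM in hcRED and 171 and 172 CPM in Mock libraries. All BRSK2 libraries were below all controls, as they were for 8.2% of all tested genes. TFAM fell in BRSK2 libraries, at -0.20 ± 0.06 (adjusted p = 0.0395), whereas in BRSK1 libraries its difference was -0.10 ± 0.06 (adjusted p = 0.354). POLRMT, the polymerase itself, was not called, at 0.06 ± 0.07 (adjusted p = 0.684) for BRSK2 and -0.13 ± 0.07 (adjusted p = 0.268) for BRSK1. The transcription factor TFB2M was at -0.12 for BRSK2 and -0.08 for BRSK1 and the elongation factor TEFM at -0.32 for BRSK2 and -0.14 for BRSK1, also without a call. In BRSK1 libraries MGME1, an exonuclease of mitochondrial DNA replication, rose by 0.36 ± 0.07 (adjusted p = 0.00469), and TWNK, the replicative helicase, listed in the tables under its older symbol C10orf2, fell, at -0.30 ± 0.07 (adjusted p = 0.0146).

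Of 25 genes of mitochondrial RNA processing and turnover, 3 fell and none rose for each kinase, where 3.05% of all genes fell for BRSK2 and 2.66% for BRSK1, with medians of -0.08 in BRSK2 and -0.04 in BRSK1 libraries. FASTKD5, which is needed to mature mRNAs not flanked by tRNAs, fell, at -0.47 ± 0.08 (adjusted p = 0.000814) in BRSK2 libraries and -0.35 ± 0.08 (adjusted p = 0.0114) in BRSK1 libraries. PDE12, which trims poly(A) tails in mitochondria, fell, at -0.20 ± 0.06 (adjusted p = 0.0494) in BRSK2 and -0.22 ± 0.06 (adjusted p = 0.0371) in BRSK1 libraries. TRMT10C, a subunit of the mitochondrial RNase P that cuts tRNAs at their 5′ ends, fell in BRSK2 libraries, at -0.22 ± 0.07 (adjusted p = 0.0412), and NGRN, required for the large-subunit rRNA, fell in BRSK1 libraries, at -0.25 ± 0.07 (adjusted p = 0.0395). The pair LRPPRC and SLIRP, which stabilise mitochondrial mRNAs, was not called: LRPPRC was at 0.08 ± 0.06 (adjusted p = 0.423) for BRSK2 and 0.10 ± 0.06 (adjusted p = 0.312) for BRSK1, and SLIRP at -0.23 ± 0.10 (adjusted p = 0.198) for BRSK2 and -0.15 ± 0.10 (adjusted p = 0.414) for BRSK1.

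For the list counts that follow, 4.77% of all tested genes rose and 3.05% fell for BRSK2, and 3.77% rose and 2.66% fell for BRSK1. Among 15 regulators of mitochondrial content 1 rose and 1 fell for each kinase, with medians of -0.05 in BRSK2 and 0.02 in BRSK1 libraries. ESRRA, a nuclear receptor of energy metabolism genes, rose by 0.46 ± 0.07 (adjusted p = 0.000157) in BRSK2 libraries, and TFAM, in this list too, fell. In BRSK1 libraries PRKAA1, a catalytic subunit of AMPK, rose by 0.25 ± 0.07 (adjusted p = 0.0347) and YY1, a transcription factor of respiratory genes, fell, at -0.18 ± 0.06 (adjusted p = 0.0496). PPRC1, a coactivator, was the 1 listed gene called between the kinases, where 0.348% of all tested genes were called. It was higher in BRSK2 by 0.32 ± 0.06 (adjusted p = 0.0185). Of 76 tested genes for mitochondrial ribosomal proteins, which translate the mRNAs described here, 1 rose and 6 fell in BRSK2 libraries and none rose and 2 fell in BRSK1 libraries, with medians of -0.07 in BRSK2 and -0.08 in BRSK1. MRPL41, of the large subunit, fell for both, at -0.27 ± 0.06 (adjusted p = 0.00739) for BRSK2 and -0.21 ± 0.06 (adjusted p = 0.0399) for BRSK1. The large-subunit genes MRPL57 (-0.34), MRPL13 (-0.31) and MRPL35 (-0.26, log2 fold changes) also fell in BRSK2 libraries, and MRPL52 (-0.30) fell in BRSK1 libraries. Of 71 nuclear genes for respiratory chain and ATP synthase subunits, 5 fell and none rose for each kinase, with medians of -0.06 in both. NDUFS6, a complex I subunit, fell, at -0.31 ± 0.07 (adjusted p = 0.00798) in BRSK2 and -0.36 ± 0.07 (adjusted p = 0.00450) in BRSK1 libraries, and UQCR11, of complex III, fell, at -0.49 ± 0.10 (adjusted p = 0.00238) in BRSK2 and -0.38 ± 0.09 (adjusted p = 0.0182) in BRSK1 libraries. The complex I subunit NDUFB7 fell for both as well, at -0.30 in BRSK2 and -0.25 in BRSK1 libraries, NDUFB4 fell in BRSK2 libraries (-0.25) and NDUFS5 in BRSK1 libraries (-0.28). No gene of the 5 lists was called in hcRED against Mock, where only 0.0295% of all tested genes were called.

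The authors' deposited table for BRSK2, which lists only genes they called, held 1 mitochondrially encoded transcript, MT-ND2, with a log2 fold change of -0.37 and an adjusted p-value of 0.0319. The authors' deposited table for BRSK1 held 11 of them, all lower, with log2 fold changes of -0.37 to -0.58 and adjusted p-values of 0.00692 to 0.0471. In the authors' deposited table for BRSK1, MT-ND3 (-0.58) and MT-RNR1 (-0.37) were listed and MT-CO2 was not, which are the 3 members on which it and the edgeR test above differed.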

How the data were processed

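RNA of 3 BRSK2, 3 BRSK1, 2 hcRED and 2 Mock samples was grouped by the genotype in the labels, with 3 µg of RNA sent for each. The submitters' processing notes name STAR, edgeR, limma and hg38, without versions; the sources used here do not give the read counter, its strand setting, how it treated reads that match several places, or the release of the annotation. Raw read counts were deposited by the authors, per gene, with a table for each kinase. The control columns were identical (0 of 58676 genes differed), so the tables were joined, with no line lacking a gene name (0) and no unused sample column (0). Log2 CPM values, also deposited, were used as a check. The authors' deposited tables of differential expression hold log2 fold changes, p-values, adjusted p-values and limma's scores (not used), named so per the file headers.

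The 16936 genes passing filterByExpr (minimum count 10, minimum total 15) were tested on the counts with edgeR 4.0.16 in R 4.3.3 (TMM factors, glmQLFit and glmQLFTest, robust). A fit of 4 group means over 10 libraries served every comparison, with the spread estimated for each gene. The common dispersion over all genes gave a biological coefficient of variation of 8.06%. Standard errors were taken as log2 fold change over the square root of the F statistic. CPM are TMM-scaled unless given as a percent of counts. In simulated data for BRSK2 against the controls over 16348 genes, 88.1% of changes of 0.5, 100% of changes of 1 and 100% of changes of 2 on the log2 scale were recovered, with 6.34% of calls false. The simulation gave every gene the common dispersion, hcRED and Mock equal means, and no split between libraries. Only genes above a minimum level were changed. The real data are less even, so these are not rates for the mitochondrial transcripts. Shares over summed members were planned with a permutation test and are given without one, since the members were chosen with results known.

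The members, gene lists and tests were chosen with earlier results of these data known. The text names all mRNAs and rRNAs, the tested tRNA, tested nuclear copies, POLRMT, TFAM, TFB2M, TEFM, LRPPRC, SLIRP and up to 4 called genes of each list by smallest p. Sequences were read from the GENCODE 29 transcripts. Alternatives used RLE or upper quartile factors, library totals, BRSK1 and BRSK2 or MT- genes left out of the scaling, other filters (none, or 1 CPM in 3 libraries), DESeq2 1.42.0, limma-voom (3.58.1), no robust estimation, an adjusted p under 0.01, fewer groups, other controls, a replicate block, a GC content trend (lowess, span 0.3) and each library left out. The split by nuclear-copy share, with libraries divided at the widest gap, and the addition of nuclear copies were chosen after seeing the data. Where a group kept 1 library, it was assumed to vary like the others. Fits within 1 side of the split left 2 or 1 residual degrees of freedom, so their calls are not used as results. Figures used matplotlib 3.10.9.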

Additional observations from a re-analysis of the deposited data

How the results depend on the processing

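Beside each count stands the share of all tested genes called in that fit. The count of the 13 mRNAs called for BRSK2 against the controls, 1 as reported, was 7 with library totals alone (17.7%), a scaling that moved the median of all genes by -0.10, 5 with no filter (4.48%), 2 with limma-voom (6.36%), 0 at an adjusted p under 0.01 (2.8%), 3 in a fit of only the groups compared (6.57%), 0 with hcRED alone as control (3.58%), 6 with Mock alone (5.5%) and 0 with all 4 controls as 1 group (6.26%). It was 2 with the nuclear-copy split as a term (5.14%), and it changed with single libraries left out, as given above. For BRSK1 the count, 9 as reported, was 3 at an adjusted p under 0.01 (1.51%), 5 in a fit of only the groups compared (8.48%), 0 with hcRED alone (0.785%) and 4 with all 4 controls as 1 group (4.68%). The BRSK1 count also changed with single libraries left out, as given above. For BRSK2 against BRSK1 the count was 2 with no filter (0.559%), and for hcRED against Mock it was 5 with no filter (0.38%). Counts within 1 side of the split are not given, since some groups had 1 library there. The causes of these changes were not tested. The 13 mRNAs' counts under RLE and upper quartile factors, DESeq2, scaling without BRSK1 and BRSK2, and nuclear copies added stayed within 1.5 times the reported ones. MTATP6P1 in BRSK2 libraries was at -0.40 with the split as a term, against 0.02 without it, but the split was drawn from its own counts and this value tests nothing. With the replicate number as a block, 0 mRNAs were called for BRSK2 (12.7%) and 5 for BRSK1 (11.8%), and with the block and a GC content correction 0 (14.5%) and 4 (14.8%). Over all genes the block thus raised the calls, also for BRSK2 against BRSK1 (1.58%) and hcRED against Mock (2.56%). Over 12 pairs of same-numbered samples the correlation of deviations ran from -0.05 to 0.16 with 2 over 0.1, and over the other 25 pairs from -0.14 to 0.10. Not every same-numbered pair was over 0.1 and no label ties the numbers to a batch, so the numbers were not taken as pairs. This choice gave the higher counts of mRNAs, 1 for BRSK2 and 9 for BRSK1. A shared effect of the replicate number was not tested. The differences in the mRNA share of counts kept their sign. They moved by less than the SD of the 4 controls (0.751) or, between the kinases, of BRSK1 (0.719), but for BRSK2 by more than its own SD (0.387) with BRSK1 and BRSK2 out of the total or a single control group, and, against BRSK1, without BRSK1 replicate 1. Counts of 49 to 275 per library limit MT-ATP8, and MT-TF and the 20 tRNAs with no count could not be tested with these counts. Whether the libraries could capture RNAs as short as these tRNAs was not tested.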
